A study of Mus musculus with 12 samples.

Results

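The blood-brain barrier and endothelial adhesion genes are a hand-picked set of 10 symbols, found by name in the first column of the 12 count tables, which list 52459 genes each. Tight junctions between brain endothelial cells close the paracellular route into the tissue, while dedicated transporters admit nutrients and a low rate of vesicle traffic restricts the rest. When endothelium is activated it displays adhesion molecules, on which circulating leukocytes first roll and then arrest. The set holds 4 barrier genes (*Cldn5*, *Mfsd2a*, *Slc2a1* and *Plvap*), 2 genes that identify endothelium (*Pecam1* and *Vwf*) and 4 leukocyte adhesion genes (*Icam1*, *Vcam1*, *Selp* and *Sele*).

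The libraries came from male mice that were 4 months old. Mice homozygous for a gene-targeted disruption of *Tpp1* (*Tpp1*-/-, T) were set against wild-type siblings (N), and all were bred from heterozygous parents. *Tpp1* encodes the lysosomal protease that is lost in classic late-infantile neuronal ceroid lipofuscinosis. Forebrain/midbrain (F/M) and cerebellum (Cb) were sequenced separately, giving the groups F/M-N, F/M-T, Cb-N and Cb-T with 3 libraries each. The allele is disrupted in every cell of the mouse, and each library holds the RNA of a whole dissected area, in which a smaller number of endothelial cells and less RNA per endothelial cell cannot be told apart. The study took tissue from 3 mice per genotype, but the labels number the libraries without naming the animals, and p-values measure the spread between these libraries.

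The depth was 21428379 to 24458189 counts per library. Levels are given in CPM, counts scaled to the library size, and the smallest level taken as detectable, 3 counts, equalled 0.123 to 0.140 CPM before TMM normalization (counting error only). *Tpp1* had 87.7 to 94.3 CPM in F/M-N against 21.8 to 23.9 CPM in F/M-T, and 112 to 114 CPM in Cb-N against 28.0 to 31.0 CPM in Cb-T, so the disrupted allele still gave reads. The cerebellar label was visible in its markers, with *Pcp2* (Purkinje cells) at 232 to 250 CPM in Cb libraries and at most 0.428 CPM in F/M. The Cb-T libraries nevertheless stood apart from Cb-N in regional genes. The summed level of 39 *Hox* genes, which are active caudal to the cerebellum, was 14.6 to 15.4 CPM in Cb-T, 0.510 to 0.733 CPM in Cb-N and at most 0.350 CPM in F/M. *En2* and *Zic1*, both high in cerebellum, were lower in Cb-T (96.7 to 102 and 682 to 719 CPM) than in Cb-N (130 to 140 and 974 to 1007 CPM). This difference covers all 3 Cb-T libraries, so it and the genotype cannot be told apart in Cb, and its part in the Cb results that follow was not tested.

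*Icam1* was the only member called a differentially expressed gene (DEG) in both areas, *Cldn5* rose in both areas by less than 1.5-fold, and *Mfsd2a* rose in Cb without passing the test in F/M. Their promoters are shown for that reason. RefSeq promoter windows of 300 bases (250 before the start and 50 after it, GRCm38.p6) were at hand for 6 of the 10 genes, and the 250 bases before the start are printed here 5′ to 3′ on the gene's strand, with the motif matches described after them in capitals.
Icam1, chr9:21015690-21015939, plus strand: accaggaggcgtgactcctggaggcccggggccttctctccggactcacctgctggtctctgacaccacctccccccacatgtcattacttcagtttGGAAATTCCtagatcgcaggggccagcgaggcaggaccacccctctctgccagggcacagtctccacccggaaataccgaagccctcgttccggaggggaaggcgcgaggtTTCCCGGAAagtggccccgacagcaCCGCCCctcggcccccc
Cldn5, chr16:18776597-18776846, plus strand: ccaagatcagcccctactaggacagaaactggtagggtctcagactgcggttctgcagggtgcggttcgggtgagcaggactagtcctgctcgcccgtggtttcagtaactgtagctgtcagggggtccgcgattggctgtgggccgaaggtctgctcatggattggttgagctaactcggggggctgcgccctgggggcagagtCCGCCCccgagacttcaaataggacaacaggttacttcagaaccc
Mfsd2a, chr4:122961189-122961438, minus strand: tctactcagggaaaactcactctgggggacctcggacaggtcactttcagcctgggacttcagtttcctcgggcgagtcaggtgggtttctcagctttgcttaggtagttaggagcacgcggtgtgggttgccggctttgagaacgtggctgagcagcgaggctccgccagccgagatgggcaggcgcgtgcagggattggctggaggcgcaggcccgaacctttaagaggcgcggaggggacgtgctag

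The windows were searched on both strands for the κB motif bound by NF-κB (its 10-letter consensus), for TATAAA and for the SP1 letters GGGCGG. None of the 6 windows held the κB motif, which 8.46% of 32851 RefSeq promoters of the same length held. GGGCGG, held by 35.7% of promoters, matched once in *Cldn5*, at 45 bases before the start, and also in *Icam1* and *Slc2a1*. On the printed strand these matches read CCGCCC, and that of *Icam1* lies 17 bases before the start with another after it. TATAAA, held by 13.6% of promoters, matched in *Icam1*, *Slc2a1* and *Sele*. In *Icam1* it lies after the RefSeq start and 32 bases before the start that GENCODE gives, so the printed stretch does not include it. Another pair of motifs was added after the values and sequences had been seen. The κB-like GGAAATTCC, held by 0.317% of promoters, lies 153 bases before the *Icam1* start. TTCNNNGAA, a STAT-type letter pattern held by 8.3% of promoters, matched as TTCCCGGAA in *Icam1* at 42 bases and as TTCCCAGAA in *Sele* at 140 bases before the start. The *Mfsd2a* window matched none of these motifs. These matches describe letters only.

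Of the 10 genes, 8 passed the filter on low counts in each area, with at least 41 counts (*Icam1* in Cb-N) in every library. In Cb, 6 of the 8 tested genes rose at FDR below 0.1 and none fell, beside 29.8% of all tested genes that rose and 27.9% that fell. One member, *Icam1*, was a DEG, which needed a change of 1.5-fold or more besides FDR below 0.1, beside 8.54% of all tested genes that were DEG upward. In F/M, 3 of the 8 rose and 1 fell, beside 12.8% that rose and 14.4% that fell, and *Icam1* was again the 1 DEG, beside 2.63% of all genes upward. The median log2 fold change (T vs. N) over all tested genes was 0.012 for Cb and 0.0078 for F/M. Each adjusted p is from the quasi-likelihood test of edgeR, by the Benjamini-Hochberg method over all genes tested, and SE is the standard error of a log2 fold change. The share of all genes whose T and N libraries do not overlap was not computed, so overlap is given below as description only.

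**Figure D1:**
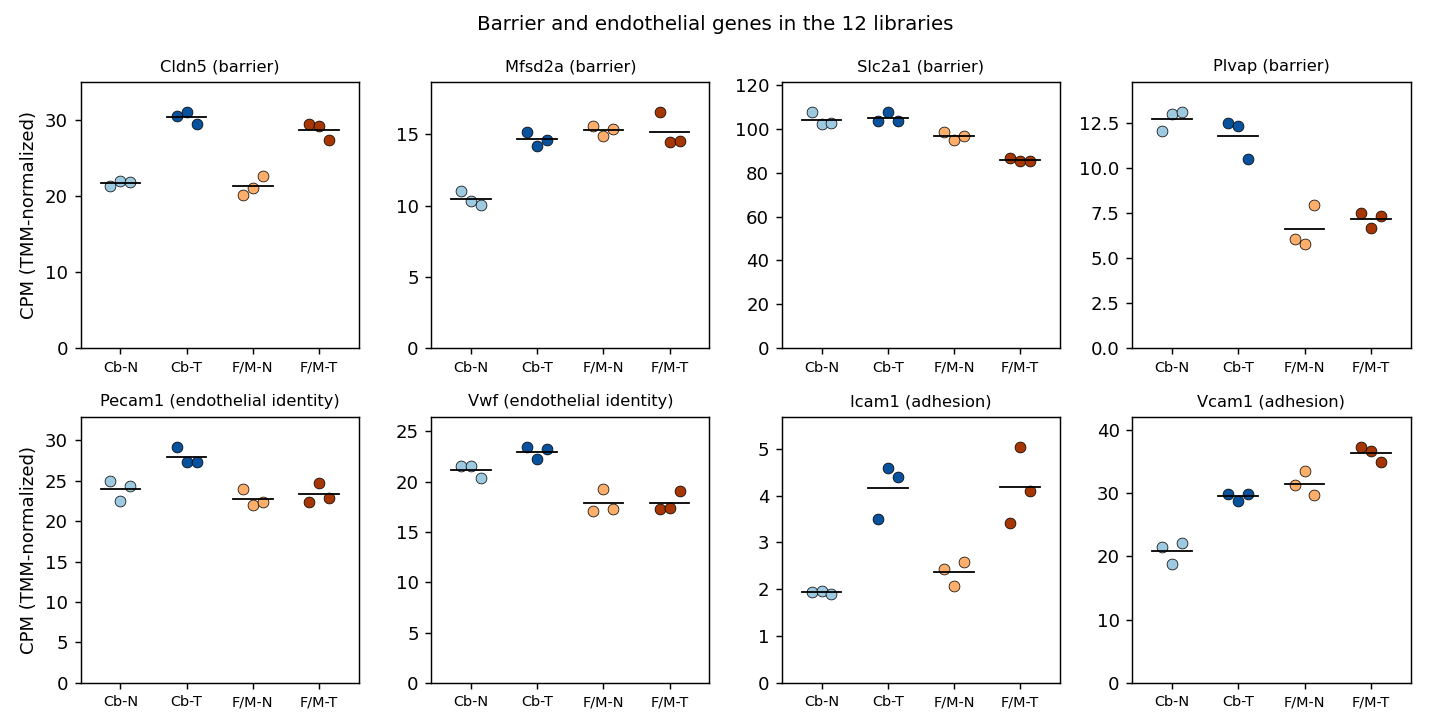
TMM-normalized CPM (vertical axes, from 0) of the 8 tested genes in each of the 12 libraries, grouped as Cb-N, Cb-T, F/M-N and F/M-T. Points are libraries and bars are the means of 3. *Cldn5*, *Icam1* and *Vcam1* are higher in every T library than in every N library of the same area. The share of all genes with such a separation was not computed.

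Among the barrier genes, *Cldn5* was higher in T mice in both areas. *Cldn5* (chromosome 16, 18776847 to 18778262, plus strand, 1 exon) encodes claudin-5, the main claudin of brain endothelial tight junctions. In Cb its level was 21.3, 22.0 and 21.8 CPM in the Cb-N libraries and 30.6, 31.1 and 29.5 CPM in the Cb-T libraries. In F/M it was 20.2, 21.1 and 22.7 CPM in F/M-N and 29.5, 29.2 and 27.3 CPM in F/M-T. No T library overlapped an N library in either area. The log2 fold change of *Cldn5* was 0.50 (SE 0.054 from the fit, adjusted p = 1.48e-10) in Cb and 0.46 (SE 0.060, adjusted p = 1.24e-05) in F/M, rises of 1.41-fold and 1.38-fold. The change in Cb exceeded that in F/M by 0.060 on the log2 scale (95% interval -0.100 to 0.22, adjusted p = 0.653), so the areas could not be separated. Control levels of *Cldn5* in Cb and F/M did not differ past the test (log2 difference 0.024, adjusted p = 0.715).

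*Mfsd2a* rose in Cb, where it was lower in control mice than in F/M. *Mfsd2a* (chromosome 4, 122946850 to 122961188, minus strand, 15 exon blocks) encodes the lysophospholipid transporter that carries docosahexaenoic acid into the brain and restrains transcytosis in barrier endothelium. Its level was 11.05, 10.3 and 10.1 CPM in Cb-N and 15.2, 14.2 and 14.6 CPM in Cb-T. In F/M-N it was 15.6, 14.9 and 15.4 CPM, and in F/M-T 16.6, 14.5 and 14.5 CPM. The Cb groups did not overlap, the F/M groups did, and the Cb-T libraries lay near those of F/M, with 1 of them below all 6. The log2 fold change of *Mfsd2a* was 0.50 (SE 0.078, adjusted p = 7.1e-07) in Cb and 0.022 (95% interval -0.13 to 0.17, adjusted p = 0.863) in F/M. The interaction, the change in Cb minus that in F/M, was 0.49 (SE 0.10, adjusted p = 0.000541). In control mice *Mfsd2a* was 1.46-fold lower in Cb than in F/M (adjusted p = 1.45e-07).

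*Slc2a1* fell slightly in F/M and did not change past the test in Cb. *Slc2a1* (chromosome 4, 119108711 to 119137983, plus strand, 12 exon blocks) encodes GLUT1, the glucose transporter of the barrier, which astrocytes and choroid plexus epithelium also make. In F/M its level was 98.5, 94.97 and 96.9 CPM in F/M-N and 86.8, 85.3 and 85.3 CPM in F/M-T, without overlap. In Cb it was 107.8, 102.5 and 102.5 CPM in Cb-N and 103.6, 107.6 and 103.8 CPM in Cb-T, with overlap. The log2 fold change of *Slc2a1* was -0.14 (SE 0.035, adjusted p = 0.00713) in F/M and 0.023 (95% interval -0.042 to 0.088, adjusted p = 0.574) in Cb. The interaction of 0.18 (SE 0.047, adjusted p = 0.00432) passed the test. *Slc2a1* was 1.08-fold higher in Cb-N than in F/M-N (adjusted p = 0.00442).

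*Plvap* differed between the control areas, and its change with genotype did not pass the test in either area. *Plvap* (chromosome 8, 71497765 to 71511752, minus strand, 6 exon blocks) encodes the diaphragm protein of fenestrae and caveolae, which mature barrier endothelium lacks and fenestrated vessels such as those of the choroid plexus keep. Its level was 12.1, 13.0 and 13.1 CPM in Cb-N and 12.5, 12.3 and 10.5 CPM in Cb-T, against 6.07, 5.81 and 7.96 CPM in F/M-N and 7.48, 6.66 and 7.32 CPM in F/M-T. The genotypes overlapped in each area, and every Cb library lay above every F/M library. The log2 fold change of *Plvap* was -0.097 (95% interval -0.26 to 0.067, adjusted p = 0.329) in Cb and 0.14 (95% interval -0.10 to 0.39, adjusted p = 0.429) in F/M. The F/M value depended on single libraries, being 0.30 (adjusted p = 0.06) without F/M-N replicate 3, 0.083 (adjusted p = 0.728) without F/M-N replicate 1 and 0.057 (adjusted p = 0.807) without F/M-N replicate 2. The Cb value was -0.024 (adjusted p = 0.848) without Cb-T replicate 3. Without F/M-N replicate 3 the interaction moved from -0.22 (adjusted p = 0.305) to -0.38 (adjusted p = 0.0535), and without F/M-N replicate 2 to -0.13 (adjusted p = 0.576). Between control areas *Plvap* was 1.92-fold higher in Cb (log2 difference 0.94, SE 0.10, adjusted p = 1.08e-09). The summed level of 11 choroid plexus markers was 2335 to 2477 CPM in Cb-N and 643 to 683 CPM in F/M-N, and its part in the area difference was not tested. The same sum was 2246 to 2383 CPM in Cb-T and 871 to 915 CPM in F/M-T. Most of it is the transthyretin gene *Ttr*, whose mean CPM went from 2107 to 2049 in Cb and from 555 to 774 in F/M (N to T), and 3 of the 11 markers rose in F/M.

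Both endothelial identity genes rose in Cb, and neither passed the test in F/M. *Pecam1* (chromosome 11, 106654217 to 106750628, minus strand) encodes PECAM-1 (CD31), a homophilic adhesion molecule of endothelial contacts that platelets and leukocytes also carry. Its level was 24.9, 22.5 and 24.3 CPM in Cb-N and 29.2, 27.3 and 27.3 CPM in Cb-T, without overlap. In F/M it was 24.0, 22.0 and 22.4 CPM in F/M-N and 22.4, 24.7 and 22.9 CPM in F/M-T, with overlap. *Pecam1* rose in Cb by a log2 fold change of 0.24 (SE 0.056, adjusted p = 0.000448), while its F/M value was 0.067 (95% interval -0.059 to 0.19, adjusted p = 0.477). The difference between the areas, 0.19 (95% interval 0.021 to 0.36, adjusted p = 0.104), did not pass the test, although it did without F/M-N replicate 2 (adjusted p = 0.0739), F/M-T replicate 2 (0.0547) or Cb-N replicate 1 (0.082). Without Cb-T replicate 1 that difference was 0.10 (adjusted p = 0.437).

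*Vwf* (chromosome 6, 125546774 to 125686679, plus strand, 56 exon blocks) encodes von Willebrand factor, the clotting glycoprotein stored with P-selectin in endothelial granules. Its level was 21.6, 21.6 and 20.4 CPM in Cb-N and 23.5, 22.2 and 23.2 CPM in Cb-T. In F/M it was 17.0, 19.3 and 17.3 CPM in F/M-N and 17.3, 17.4 and 19.0 CPM in F/M-T. The Cb groups did not overlap and the F/M groups did. The Cb rise, a log2 fold change of 0.13 (SE 0.059, adjusted p = 0.0638), was fragile. It missed the threshold without Cb-N replicate 3 (0.094, adjusted p = 0.241), Cb-T replicate 1 (0.11, 0.158) or Cb-T replicate 3 (0.12, 0.141), with the DESeq2 Wald test (0.12, 0.212), with no filter (0.13, 0.12) and in a fit of all 12 libraries (0.12, 0.115). In F/M the log2 fold change of *Vwf* was 0.039 (95% interval -0.10 to 0.18, adjusted p = 0.734), and the interaction of 0.11 (adjusted p = 0.427) did not pass. That interaction ran from 0.043 without Cb-T replicate 1 to 0.16 without F/M-T replicate 3. In control mice *Vwf* was 1.19-fold higher in Cb than in F/M (adjusted p = 0.000796).

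Among the adhesion genes, *Icam1* had the greatest fold change of the 8 tested genes in both areas. *Icam1* (chromosome 9, 21015985 to 21028817, plus strand, 7 exon blocks) encodes ICAM-1, the ligand on which leukocyte β2 integrins arrest, and activated glia make it too. Its level was 1.95, 1.97 and 1.90 CPM in Cb-N and 3.50, 4.59 and 4.39 CPM in Cb-T. In F/M it was 2.43, 2.07 and 2.58 CPM in F/M-N and 3.41, 5.05 and 4.11 CPM in F/M-T. No T library overlapped an N library, and the T libraries were spread more widely than the N libraries. The log2 fold change of *Icam1* was 1.11 (SE 0.16, adjusted p = 1.11e-07) in Cb and 0.86 (SE 0.16, adjusted p = 0.000773) in F/M, rises of 2.16-fold and 1.82-fold. Leaving out any 1 library or changing any other setting tried kept *Icam1* past the FDR threshold, with log2 fold changes of 1.04 to 1.22 for Cb and 0.71 to 0.98 for F/M. The areas did not differ past the test (interaction 0.27, 95% interval -0.21 to 0.75, adjusted p = 0.466), and this value ran from 0.15 without F/M-T replicate 1 to 0.43 without F/M-T replicate 2, with 0.18 without Cb-T replicate 3. Of the exon bases of *Icam1*, 11.7% lie opposite exons of the antisense gene *Gm47079*. The library kit keeps strand, but whether the counting used it is not given in the sources used here. The count tables do not list *Gm47079*, so its level cannot be read. Whether the *Icam1* counts hold antisense reads cannot be told.

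*Vcam1* rose in both areas, and more in Cb. *Vcam1* (chromosome 3, 116109949 to 116129688, minus strand, 10 exon blocks) encodes VCAM-1, the ligand of the α4β1 integrin, and cells other than endothelium in the brain also express it. In Cb its level was 21.5, 18.8 and 22.1 CPM in Cb-N and 29.9, 28.7 and 29.8 CPM in Cb-T. In F/M it was 31.2, 33.5 and 29.6 CPM in F/M-N and 37.3, 36.6 and 34.9 CPM in F/M-T. The genotypes did not overlap in either area, and the Cb-T libraries reached only the lower end of F/M-N. The log2 fold change of *Vcam1* was 0.52 (SE 0.058, adjusted p = 4.85e-10) in Cb and 0.24 (SE 0.053, adjusted p = 0.00292) in F/M. The interaction of 0.30 (SE 0.081, adjusted p = 0.00773) passed the test.

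*Selp* and *Sele*, which encode the P- and E-selectins that start leukocyte rolling on activated endothelium, were at or under the floor of 3 counts in every library and were not tested. *Selp* (chromosome 1, 164115264 to 164150026) had 0, 0 and 0 counts in Cb-N, 2, 2 and 1 in Cb-T, 3, 0 and 0 in F/M-N and 1, 0 and 0 in F/M-T. *Sele* (chromosome 1, 164048234 to 164057677) had 0, 0 and 0 counts in Cb-N, 0, 1 and 1 in Cb-T, 0, 0 and 1 in F/M-N and 0, 1 and 0 in F/M-T. The highest value was the 3 counts of *Selp* in 1 F/M-N library, and no fold change is given. Antisense genes cover 14.1% of the exon bases of *Selp* and had at most 4 (*Gm16548*) and 2 (*Gm16587*) counts in any library.

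**Figure D2:**
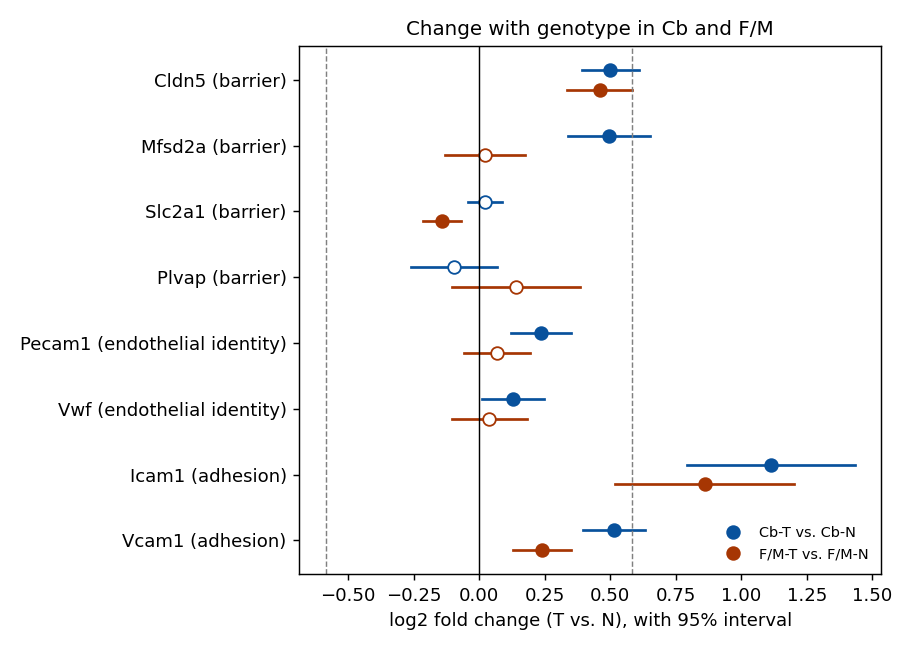
Log2 fold changes (T vs. N, horizontal axis) of the 8 tested genes with 95% intervals, in Cb and in F/M. Filled points passed FDR below 0.1, dashed lines mark a 1.5-fold change, and only the points of *Icam1*, at 1.11 and 0.86, lie beyond them.

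Set side by side, the barrier and adhesion genes gave different counts but were too few for a test between them. Of the 4 barrier genes, 2 rose in Cb (median log2 fold change 0.26) and 1 rose and 1 fell in F/M (median 0.082), beside 29.8% of all genes that rose in Cb and, in F/M, 12.8% that rose and 14.4% that fell. These medians include *Plvap* (-0.097 in Cb, 0.14 in F/M), whose protein mature barrier endothelium lacks. A rise therefore does not mean the same for all 4. Both identity genes rose in Cb (median 0.18) and neither passed in F/M (median 0.053). Both tested adhesion genes rose in each area, with a Cb median of 0.81 and an F/M median of 0.55. The interaction passed for 3 of the 8 tested genes (*Mfsd2a*, *Slc2a1* and *Vcam1*), beside 27.5% of all 17482 genes tested. In all 3 the change in Cb was more positive than that in F/M.

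Between the control areas, *Plvap* was a DEG higher in Cb-N, beside 19.2% of all genes, and *Vcam1* a DEG lower in Cb-N, beside 23.2%. The area difference of *Vcam1* was close to the fold limit, at 1.51-fold (log2 difference -0.59, SE 0.060, adjusted p = 2.91e-10), and fell under it without F/M-N replicate 2 (-0.55), Cb-N replicate 2 (-0.53), Cb-T replicate 1 (-0.56) or Cb-T replicate 3 (-0.56). *Icam1* was lower in every Cb-N than in every F/M-N library, but its log2 difference of -0.28 (adjusted p = 0.173) did not pass. The genotype and area comparisons share the Cb-N and F/M-N libraries, so their values are given side by side only.

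Per kb of exon, *Slc2a1* and *Cldn5* were the highest in both control areas and *Vwf* and *Icam1* the lowest, while *Plvap* lay above *Mfsd2a* in Cb-N and below it in F/M-N. In Cb-N the mean level, in CPM per kb of exon (RPKM), was 29.7 for *Slc2a1*, 15.3 for *Cldn5*, 6.41 for *Plvap*, 4.66 for *Mfsd2a*, 3.84 for *Pecam1*, 2.35 for *Vcam1*, 1.32 for *Vwf* and 0.445 for *Icam1*. In F/M-N it was 27.6 for *Slc2a1*, 15.1 for *Cldn5*, 6.80 for *Mfsd2a*, 3.66 for *Pecam1*, 3.55 for *Vcam1*, 3.33 for *Plvap*, 1.11 for *Vwf* and 0.541 for *Icam1*. *Pecam1*, *Vcam1* and *Plvap* overlapped in F/M-N and cannot be ordered there. In T mice *Icam1* averaged 0.954 RPKM in Cb-T, where it was the lowest of the tested genes, and 0.961 RPKM in F/M-T, where its libraries overlapped those of *Vwf* (mean 1.12 RPKM) and the pair cannot be ordered.

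**Figure D3:**
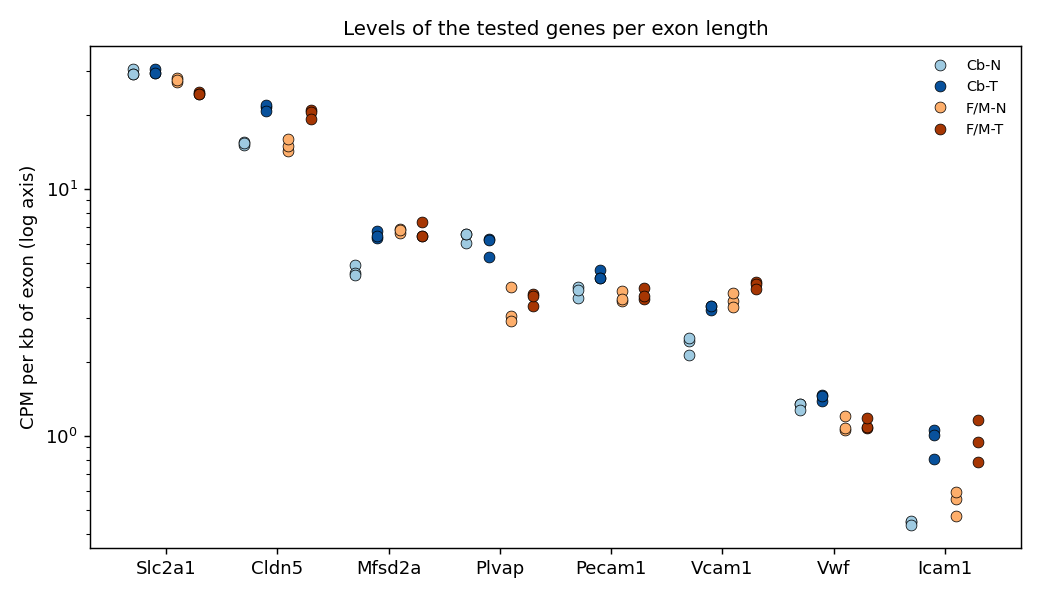
CPM per kb of exon (logarithmic vertical axis) of the 8 tested genes in each library, coloured by group. *Slc2a1* and *Cldn5* lie above the others in all groups, and *Icam1* lies below them in Cb-N, Cb-T and F/M-N but overlaps *Vwf* in F/M-T.

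The neighbouring genes of the barrier were taken as lists, as were the vascular and immune genes of the paragraphs that follow. All their counts stand beside the shares of all tested genes, with 29.8% risen and 27.9% fallen in Cb and 12.8% risen and 14.4% fallen in F/M. Of 14 transport genes of barrier endothelium, 12 rose and 1 fell in Cb (median log2 fold change 0.16) and 5 rose and 1 fell in F/M (median 0.048), none a DEG. *Tfrc*, the transferrin receptor, rose in both areas (Cb 0.14, adjusted p = 4.48e-05, F/M 0.15, adjusted p = 0.00255), and the zinc transporter gene *Slc39a10* fell in F/M (-0.12, adjusted p = 0.0145) with -0.044 (adjusted p = 0.292) in Cb. Of 11 junction genes, 5 rose and 4 fell in Cb (median -0.013), and 1 rose and 1 fell in F/M (median 0.036). *Jam2*, a junctional adhesion molecule, rose in Cb by 0.27 (adjusted p = 5.3e-09), and *Tjp1*, the scaffold ZO-1, rose there by 0.12 (adjusted p = 0.000663) and fell in F/M by 0.094 (adjusted p = 0.092). *Marveld2*, which encodes tricellulin, was a DEG that fell in Cb (-0.62, adjusted p = 6.75e-10), from a mean of 22.7 to 14.6 CPM. It is also a gene of epithelia, and its mean was only 1.20 CPM in F/M-N.

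Wnt signalling from neural cells induces and maintains the barrier. Of 15 genes of that pathway, 5 rose and 3 fell in Cb (median 0.054) and 5 rose and 4 fell in F/M (median 0.023). The ligand gene *Wnt7b* was a DEG in Cb (0.64, adjusted p = 8.51e-08), where its mean went from 8.20 to 12.7 CPM, and had 0.052 (adjusted p = 0.496) in F/M. *Foxq1*, a forkhead factor of brain endothelium, was a DEG in F/M (0.72, adjusted p = 0.00134) and rose in Cb (0.53, adjusted p = 0.00543). *Ctnnb1*, which encodes β-catenin, rose in Cb by 0.084 (adjusted p = 0.0018), and the co-receptor gene *Lrp6* fell in Cb by 0.10 (adjusted p = 0.0102), while in F/M it fell by 0.14 (adjusted p = 0.0328).

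Other endothelial markers were described by a list of 18, of which 9 rose and 1 fell in Cb (median 0.12), and 4 rose and none fell in F/M (median 0.086). *Flt1* and *Ptprb*, a VEGF receptor and a vascular phosphatase, had the highest control levels of the list in the mean over both areas. Their Cb values were -0.0025 (adjusted p = 0.961) and 0.040 (adjusted p = 0.404). *Cd34*, a sialomucin of endothelium and progenitor cells, was the list's DEG in Cb (0.69, adjusted p = 2.94e-14), from a mean of 21.2 to 33.7 CPM, against 68.3 CPM in F/M-N. Of 14 mural cell markers, 5 rose and 3 fell in Cb (median 0.12), and 4 rose in F/M (median 0.072).

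Of 10 other endothelial adhesion genes tested, 4 rose and 4 fell in Cb (median 0.081), and none rose and 4 fell in F/M (median -0.059). *Cx3cl1*, the membrane-bound chemokine that neurons make in quantity, rose in Cb by 0.33 (adjusted p = 3.35e-11) and fell in F/M by 0.25 (adjusted p = 5.37e-07). *Cd47* fell in Cb by 0.15 (adjusted p = 9.67e-07). The leukocyte partners of the adhesion molecules formed another list. Of 12 tested in Cb, 8 rose, 6 of them DEG, and 2 fell (median 0.58), and of 11 in F/M 6 rose, 2 of them DEG, and 2 fell (median 0.17), beside 8.54% of all genes that were DEG upward in Cb and 2.63% in F/M. *Itgax* in both areas and *Spn* in Cb passed the filter only with the help of the T libraries, where they are higher, so a rise was built into their being tested.

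*Itgb2*, the β2 chain through which leukocytes bind ICAM-1, rose by 2.60 in Cb (adjusted p = 3.97e-23), and its F/M rise was 0.82 (adjusted p = 1.84e-06) on the log2 scale. Its partner *Itgam* rose by 1.40 in Cb (adjusted p = 1.18e-19), and its F/M rise was 0.39 (adjusted p = 1.85e-05). *Itgax*, another β2 partner, rose by 4.98 in Cb (adjusted p = 2.32e-26), from a mean of 0.366 to 11.5 CPM. In F/M it rose by 5.08 (adjusted p = 5.67e-12), from a mean of 0.173 to 5.93 CPM. The control levels of *Itgax* were low, at 0.0867 to 0.296 CPM in F/M-N, around the floor, and 0.266 to 0.510 CPM in Cb-N. The size of these folds is therefore uncertain. *Spn*, which encodes a leukocyte sialomucin, was a DEG in Cb (1.31, adjusted p = 0.0138) at a mean of only 0.608 CPM. *Itgb1*, which pairs with α4 to bind VCAM-1, rose in Cb by 0.18 (adjusted p = 7.21e-05), with an F/M rise of 0.13 (adjusted p = 0.0108), and *Glg1*, an E-selectin ligand, fell in Cb by 0.15 (adjusted p = 1.28e-05), while in F/M it fell by 0.11 (adjusted p = 0.0378). The integrins of this list are also genes of microglia, and the 12 microglia markers all rose in Cb (median 1.56), with a summed level of 156 to 167 CPM in Cb-N and 530 to 543 CPM in Cb-T. In F/M 10 of the 12 rose (median 0.48), and the sum went from 455 to 470 CPM in F/M-N to 671 to 676 CPM in F/M-T.

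Genes of the NF-κB and cytokine response, to which *Icam1*, *Vcam1* and the selectins answer in cultured endothelium, were taken as a further list. Of 14 tested in Cb, 11 rose, 8 of them DEG, and none fell (median 0.92), and of 14 in F/M 4 rose, 2 of them DEG, and 2 fell, 1 of them a DEG (median 0.029), beside the shares of 8.54% and 2.63% of all genes that were DEG upward in Cb and F/M. Of these, *Cxcl10* in both areas and *Lcn2* in Cb passed the filter only through the T libraries, and *Lrg1* in F/M only through the N libraries, so their direction was built into their being tested. Over all 16665 genes tested in F/M, 438 of the 581 DEG were upward and the others downward. The interaction was higher in Cb for 6 of 15 tested, lower for 1 and did not pass for 8, beside 27.5% of all genes that passed it in either direction. *Tnf* was at 0 counts in every control library and close to the floor in the T libraries, at 0.0414 to 0.131 CPM in F/M-T and 0.0805 to 0.295 CPM in Cb-T. The factor genes *Nfkb1* and *Rela* stood at 0.035 (adjusted p = 0.576) and -0.011 (adjusted p = 0.872) in Cb. The chemokine gene *Cxcl10* rose by 2.93 in Cb (adjusted p = 4.89e-11), and its F/M rise was 4.14 (adjusted p = 1.32e-07). Its control levels were close to the floor, at 0 to 0.304 CPM in F/M-N and 0.0887 to 0.458 CPM in Cb-N, so the size of these folds is uncertain. *Socs3*, a feedback inhibitor of cytokine signals, rose by 1.60 in Cb (adjusted p = 3.14e-08) and had 0.0080 (adjusted p = 0.979) in F/M. The TNF receptor gene *Tnfrsf1b* rose by 1.34 in Cb (adjusted p = 1.64e-10), and *Lcn2*, an acute-phase lipocalin, rose there by 2.55 (adjusted p = 6.73e-10), from a mean of 0.361 to 2.13 CPM. *Bst2*, an interferon-induced gene, rose more in F/M (1.85, adjusted p = 2.49e-09) than in Cb (1.05, adjusted p = 1.08e-08, interaction -0.78, adjusted p = 0.00453). *Lrg1*, a glycoprotein gene of activated vessels, fell in F/M by 1.12 (adjusted p = 0.022), with a mean of 0.356 CPM in F/M-T.

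**Figure D4:**
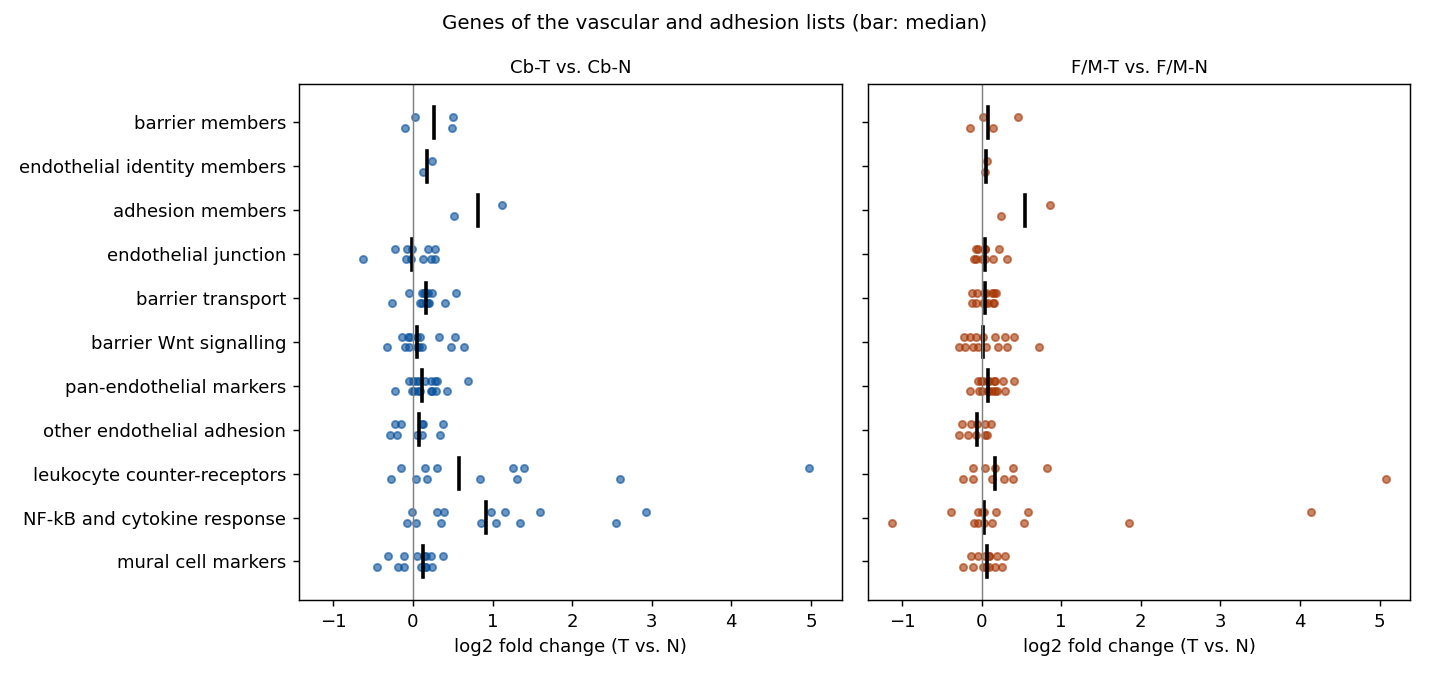
Log2 fold changes (T vs. N, horizontal axes) of the tested genes of 11 vascular and adhesion lists in Cb (left) and F/M (right). Each point is a gene and each bar the median of its list, which reaches 0.92 for NF-kB and cytokine response in Cb and 0.029 in F/M.

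Lists of other cells that a dissected brain area holds are given by their counts, and their part in the changes of the barrier and adhesion genes was not tested. The shares of all tested genes are again 29.8% risen and 27.9% fallen in Cb and 12.8% risen and 14.4% fallen in F/M. Astrocyte markers rose in 11 of 12 cases in Cb (median 0.27) and 10 of 12 in F/M (median 0.18), and their sum went from 6741 to 6785 CPM in Cb-N to 8646 to 8683 CPM in Cb-T. Of 10 vascular fibroblast markers, 6 rose in Cb and 2 in F/M (median 0.18 in each). Of the red cell markers tested, 5 of 6 rose in Cb (median 0.47) and 5 of 5 in F/M (median 0.28), with sums of 90.9 to 100.6 CPM in Cb-N against 124 to 133 CPM in Cb-T. All 8 oligodendrocyte markers rose in Cb (median 0.33) and 1 rose in F/M (median 0.017). Neuron markers fell in 5 of 8 cases in Cb and rose in 1 (median -0.15), and fell in 3 of 8 in F/M (median -0.050). Of 11 choroid plexus markers, 5 rose and 3 fell in Cb (median -0.019) and 3 rose in F/M (median 0.18). Only 2 of 8 platelet and 3 of 12 lymphocyte and neutrophil markers passed the filter, of which 1 each (*Pf4* and *Lck*, both tested only with the help of the T libraries) rose in Cb and none in F/M. The platelet gene *Gp1ba* was at 0 in all control libraries and under the floor in T, at most 0.0438 CPM in F/M-T and 0.0828 CPM in Cb-T.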

How the data were processed

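Total RNA of Cb and F/M was made into libraries with a stranded mRNA kit and sequenced as single-end 50-base reads. The authors aligned the reads to GRCm38 (mm10) with STAR, counted them per gene with featureCounts, and deposited raw counts without normalization, 1 table per library. The submitters' processing notes name STAR 2.5.1b and featureCounts 1.26.1. The annotation release, the strand setting and the handling of reads with several alignments are not given in the sources used here.

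From these counts, genes were filtered per area with filterByExpr (minimum count 10, minimum total count 15), normalized by TMM and tested with edgeR 4.0.16 in R 4.3.3 (glmQLFit and glmQLFTest, genotype only, 6 libraries), with Benjamini-Hochberg adjustment over 16382 genes in Cb and 16665 in F/M. A gene passed at FDR below 0.1, and a DEG also had a fold change of at least 1.5. The interaction of area and genotype and the difference between control areas came from 1 fit of all 12 libraries. Standard errors are the log2 fold change divided by the root of the F statistic, and 95% intervals use the t distribution. CPM levels were normalized by TMM over all 12 libraries. RPKM divided CPM by the union of GENCODE M21 exons. Scripts were tested on simulated counts. The alternatives used DESeq2 1.42.0 and limma 3.58.1, RLE size factors, other filters, the replicate number as a block, FDR below 0.05 and leaving out each replicate.

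The members and lists were chosen with earlier results of these data known. All members were named, and from each vascular or immune list the DEG of either area (at most 4 per area, by fold change) and the 2 genes with the highest mean control level over both areas, while other cell types were given by counts and sums. The *Hox* genes, the regional markers and the levels of *Nfkbia* and *Ptgs2* were added after values were seen. Of the listed genes, 1 was not used here. Replicates of a group differed beyond sampling noise (chi-square per degree of freedom 1.27 to 3.46), and each was counted as a separate library.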

Additional observations from a re-analysis of the deposited data

Results flagged for a closer look

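The change with genotype differed between the areas for 3 of the 8 tested genes, by the interaction test of edgeR over all 12 libraries, beside 27.5% of all genes tested. For *Mfsd2a*, the change in Cb minus that in F/M was 0.49 on the log2 scale. For *Vcam1* it was 0.30. For *Slc2a1* it was 0.18, between a fall in F/M and a value near 0 in Cb. The Cb-T libraries behind these values also carry the higher *Hox* levels given above, whose part was not tested. Groups of 3 libraries are too small to look for single outlying values.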

How the results depend on the processing

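The values of the 8 tested members and the counts of members called were recomputed under every alternative, whereas the other lists and their genes were not. Of 660 recomputed values, 635 kept their direction and their side of the threshold or stayed within 1.5 times the main count, 7 lost a call, 9 gained one, 5 counts moved further and 4 changed sign. The 4 were not called in either fit. *Mfsd2a* in F/M was -0.011 in a fit of all 12 libraries and ranged from -0.046 (without F/M-T replicate 1) to 0.061 when each replicate was left out, *Vwf* in F/M from -0.0077 (without F/M-T replicate 3) to 0.094, and *Cldn5* between control areas from -0.016 (without F/M-N replicate 1) to 0.071. The 7 losses are those of *Vwf* in Cb, including FDR below 0.05. The number of members called DEG between control areas was 2, with a range of 1 to 2 when each replicate was left out, and 1 with total counts as library size, an alternative chosen after seeing the data, since *Vcam1* (-0.54) then fell under the fold limit. That setting also brought *Slc2a1* in Cb (0.066, adjusted p = 0.0836), *Pecam1* between control areas (0.13, adjusted p = 0.049) and the *Pecam1* interaction (0.19, adjusted p = 0.0972) past the threshold. The other gains are those of *Plvap* and *Pecam1* given with those genes, and that of *Pecam1* under the block.

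Same-numbered libraries, N with T of an area or Cb with F/M of a genotype, deviated from their group means with correlations of -0.016 to 0.062 across genes. Between N and T, which are different mice, 2 of 6 libraries in Cb and 3 of 6 in F/M correlated best with their own number. No such count was made between Cb and F/M, so it cannot show whether same-numbered libraries of the 2 areas share a mouse. The main fits did not take the numbers as pairs. With the replicate block across genotypes, the members past FDR stayed at 6 in Cb and 4 in F/M, and the members DEG at 1 in each. For the interaction, the block joined same-numbered Cb and F/M libraries of a genotype. With it, the members with an interaction went from 3 to 4, through *Pecam1* (0.19, adjusted p = 0.0822).

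The median over all tested genes moved by less than 0.1 on the log2 scale under each scaling. At this depth the selectins were at or under 3 counts in every library, and *Icam1*, at 41 to 122 counts, had the largest standard errors of the tested genes.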
